A study of Mus musculus with 27 samples.

Results

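Math1-cre:SmoM2 tumours arise in the cerebellum of mice in which Cre recombinase, driven by regulatory sequence of Math1 (also called Atoh1), switches on SmoM2, a constitutively active Smoothened, the transducer of Hedgehog signals. They were chosen by their sample label and make up 3 of the 27 Affymetrix expression arrays of a mouse series on Hedgehog-driven medulloblastoma and the identity of granule neuron precursors. They were set against 6 arrays of cerebellar tissue without tumour, of which controls 1 and 2 came from Olig2-tva-cre:SmoM2 mice, control 3 from an hGFAP-cre:SmoM2 mouse, controls 4 and 5 from Mxi1-cre:SmoM2 mice and control 6 from a Ptc1+/- mouse, which lacks a working copy of the Hedgehog receptor gene Ptch1. In a further comparison they were set against the tumours of the other SmoM2 lines, with 3 arrays from Tlx3-cre:SmoM2, 7 from Olig2-tva-cre:SmoM2 and 6 from hGFAP-cre:SmoM2 mice. The series also holds 2 arrays of tumours from Ptc1+/- mice, which were in the fit but in neither comparison. No control came from Math1-cre:SmoM2 mice, so the driver line and the presence of a tumour cannot be told apart in the first comparison. Controls 1 to 5 carry SmoM2 with another Cre driver, and control 6 carries no SmoM2 by its label. The labels used here give no age, and do not name the animals behind the tumours, which they term biological replicates, so the spread that the p-values rest on is that between samples. Math1-cre acts in the whole Math1 lineage, which includes granule neuron precursors and some neurons of the brainstem, and each array held RNA of whole tissue with all its cell types.

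Granule neuron precursors divide in the outer layer of the cerebellum around birth, driven by Sonic hedgehog from Purkinje cells. Hedgehog binding relieves the block that the receptor Patched1 puts on Smoothened, and the Gli transcription factors then switch on targets such as Gli1, Ptch1, Mycn and the D-type cyclins. The precursors later leave the cell cycle, migrate inwards past the Purkinje cells and mature into granule neurons. An activated Smoothened signals without ligand, and tumours of this lineage are models of the Hedgehog subgroup of medulloblastoma.

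All values are log2 of the MAS5 signal intensity after each array was scaled to a common trimmed mean, and a log2 difference of 1 is a 2-fold difference. Signals under 10.32 were raised to a floor of 3.37 on the log2 scale, and a difference is written as a bound ("at least", "or lower") where an array on its lower side was at that floor. The 3 tumours had trimmed mean signals of 140.1 to 159.5 before scaling and the controls 117.9 to 161. Correlations between arrays across genes were 0.945 to 0.958 within the tumours, 0.921 to 0.961 within the controls and 0.708 to 0.756 between them. The mean log2 ratio of 3' to 5' probe sets of Gapdh and Actb, a sign of RNA integrity, was -0.065 to 0.458 in the tumours and 0.138 to 1.75 in the controls, highest in control 1, and with it as a covariate 5342 genes were called, 4823 of them among the 5062 of the fit without it. Control 6 stood apart from the other controls, with the highest mean level among them for the lists of mitotic kinases, kinetochore and replication genes (control 5 was highest for the 12 mitotic kinesins), and was the control nearest to the tumour mean for 1493 (29.5%) of the genes called, against 10.3% to 17.9% for each other control. Without it 4974 genes were called in place of 5062, and 4801 of the 5062 were kept in the same direction. Bulk arrays cannot tell fewer cells of a type from less RNA per cell, which touches every result on cell type markers. The number of arrays limits the precision. The spread behind the p-values was pooled over all 6 groups of the series. The median standard deviation of a gene ran from 0.26 in these tumours to 0.507 in the Olig2-tva-cre:SmoM2 tumours, with 0.305 in the controls. With only the tumour and control arrays compared here in the fit, 6606 genes were called, 5040 of them among the 5062.

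The genes of the design were read first. Smo, the gene of Smoothened, stood at 8.66, 8.61 and 8.83 in the 3 tumours and from 6.76 to 7.27 (median 6.94) in the 6 controls, and rose by 1.72 (SE 0.22, adjusted p = 4.53e-07). Whether its probe set detects the SmoM2 transcript was not examined here. Atoh1, the driver gene, whose factor is needed to make granule neuron precursors, stood at 10.09, 10.21 and 9.89 in the 3 tumours and from 4.34 to 6.15 (median 5.32) in the 6 controls, and rose by 4.74 (SE 0.49, adjusted p = 8.43e-09). In both genes all 3 tumours lay above all 6 controls. Neither gene was called in the comparison with the other SmoM2 tumours below, so these levels do not check the driver named in the label.

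**Figure D1:**
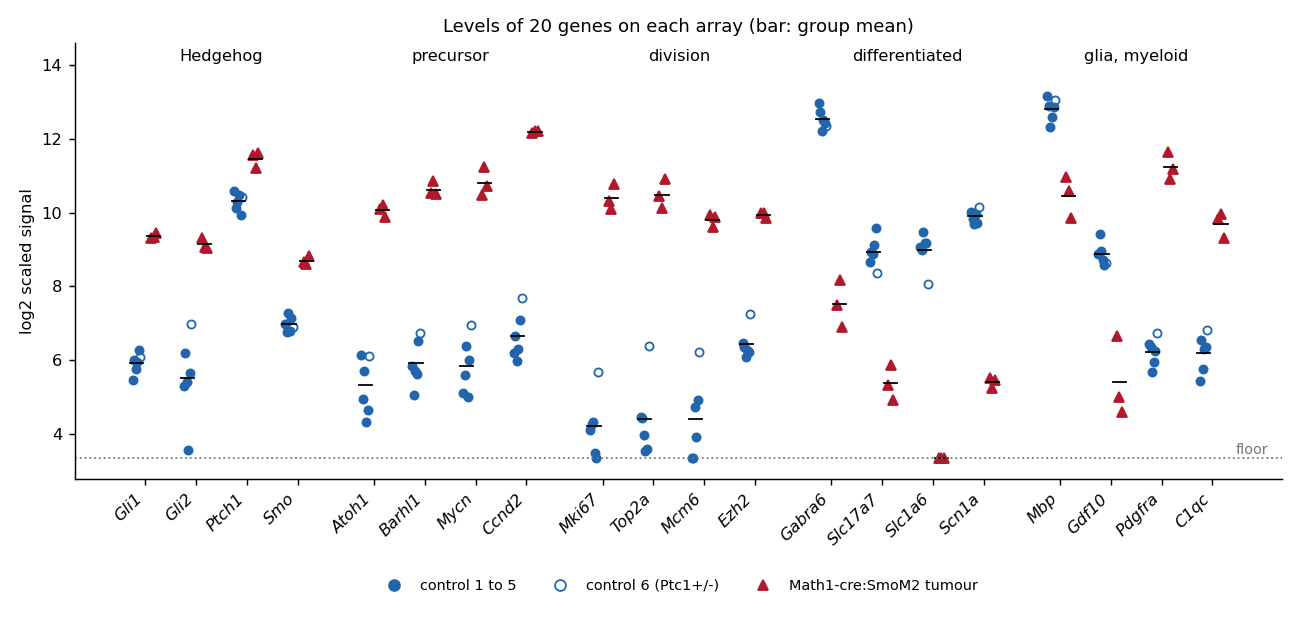
Log2 scaled signal (vertical axis) of 20 genes on each of the 3 Math1-cre:SmoM2 tumour arrays (triangles) and 6 control arrays (circles, control 6 open), with a bar at each group mean and a dotted line at the floor of 3.37. In each of the 20 genes the tumours and the controls do not overlap, and control 6 is the control nearest to the tumours for, among others, Mki67, Top2a, Mcm6, Ezh2 and Slc1a6. Heights can be compared within a gene only.

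Of 13527 genes tested, 5062 (37.4%) differed between the Math1-cre:SmoM2 tumours and tissue without tumour at a limma adjusted p under 0.05, 2608 higher (19.3% of genes tested) and 2454 lower (18.1%). Those that were at least 2-fold higher numbered 1819 (13.4%) and those at least 2-fold lower 1814 (13.4%). The 2 groups did not overlap for 5860 genes (43.3%), and 4679 of the 5062 called genes were among these, 2426 above and 2253 below the controls. The median difference over all genes was 0.03, and the median size of a called difference was 1.35. At least 8-fold differences were close in number, with 259 called genes higher and 224 lower. Only the largest leaned clearly upwards, with 38 called genes at least 32-fold higher and 4 at least 32-fold lower. The gene lists below are read against these shares of all genes, and in the text "rose" and "fell" are used only of called genes.

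The largest increases were in genes of neuronal progenitors and of dividing cells. Insm1, which encodes a zinc finger factor of progenitors, stood at 11.17, 11.19 and 11.26 in the 3 tumours and from 3.37 to 6.73 (median 3.37) in the 6 controls, where 4 controls were at the floor, and rose by at least 7.16. Leaving out control 6, the highest of the controls, raised that bound to at least 7.70. Sox11, a factor of immature neurons, stood at 12.26, 12.27 and 12.77 in the 3 tumours and from 5.41 to 7.12 (median 5.75) in the 6 controls and rose by 6.44 (87-fold). Cdk6, a kinase of the G1 phase, stood at 11.12, 11.39 and 11.39 in the 3 tumours and from 4.22 to 6.41 (median 4.99) in the 6 controls and rose by 6.28. The next were Cd24a, a surface protein of immature neurons, which rose by 6.33, Dcc, a netrin receptor, by 6.29, Tox3 by at least 6.12, the secreted Wnt modulator Sfrp1 by 6.02 and the cytoskeletal gene Pdlim3, a known Hedgehog target, by at least 5.92. Among genes of dividing cells, Mki67 rose by at least 6.17, Top2a by 6.09, Ube2c by at least 6.01, Psrc1 by at least 5.89, Cks2 by 5.86, Uhrf1 by at least 5.82, Rrm2 by 5.67 and Cdca3 by at least 5.79, the last shown by 1 of its 3 probe sets. The 20 highest also held Igfbpl1, which rose by at least 5.77, the microtubule protein gene Dcx, by at least 5.76, the nicotinic receptor subunit gene Chrna3, by at least 5.61, and Hsd11b2, whose enzyme inactivates corticosterone, by at least 5.59. Igfbpl1 and Chrna3 were at the floor in all 6 controls, and stood at 9.30, 9.17 and 8.93 and at 8.98, 9.34 and 8.62 in the tumours. The 20 highest were ranked among called genes without overlap between the groups, so neither is a result here.

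The largest decreases were in genes of mature cerebellar neurons. Slc1a6, a glutamate transporter of Purkinje cells, was at the floor of 3.37 in all 3 tumours and stood at 8.06 to 9.47 (median 9.12) in the 6 controls, and it fell by at least 5.62 (SE 0.42, adjusted p = 2.20e-11). Gabra6, a GABA receptor subunit restricted to granule neurons in the cerebellum, stood at 7.50, 8.18 and 6.92 in the 3 tumours and from 12.20 to 12.97 (median 12.47) in the 6 controls and fell by 5.00, a 31.9-fold difference. Its partner subunit gene Gabrd fell by 4.96, and Cbln3, a synaptic organiser of granule neurons, fell by 4.93. Calcium sensor and calcium signalling genes followed, with Tesc at -5.28, Vsnl1 at -4.89, the calcium pump gene Atp2b3 at -4.50 and the kinase gene Camk2a at -4.63 or lower. Sodium channel genes were also among the 20 lowest, with Scn2b at -4.50, Scn1a at -4.49 and Fgf14, whose protein binds these channels, at -4.59. The others were Ipcef1 at -5.17 or lower, Fam107a at -5.01, Strip2 at -4.89, the neuronal enolase gene Eno2 at -4.67, the proton pump gene Atp6v1g2 at -4.64, Crtam at -4.60, Spock3 at -4.57 or lower, the Rac regulator Chn2 at -4.57 and Kndc1, a dendrite gene of granule neurons, at -4.56. The 20 lowest were chosen in the same way.

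**Figure D2:**
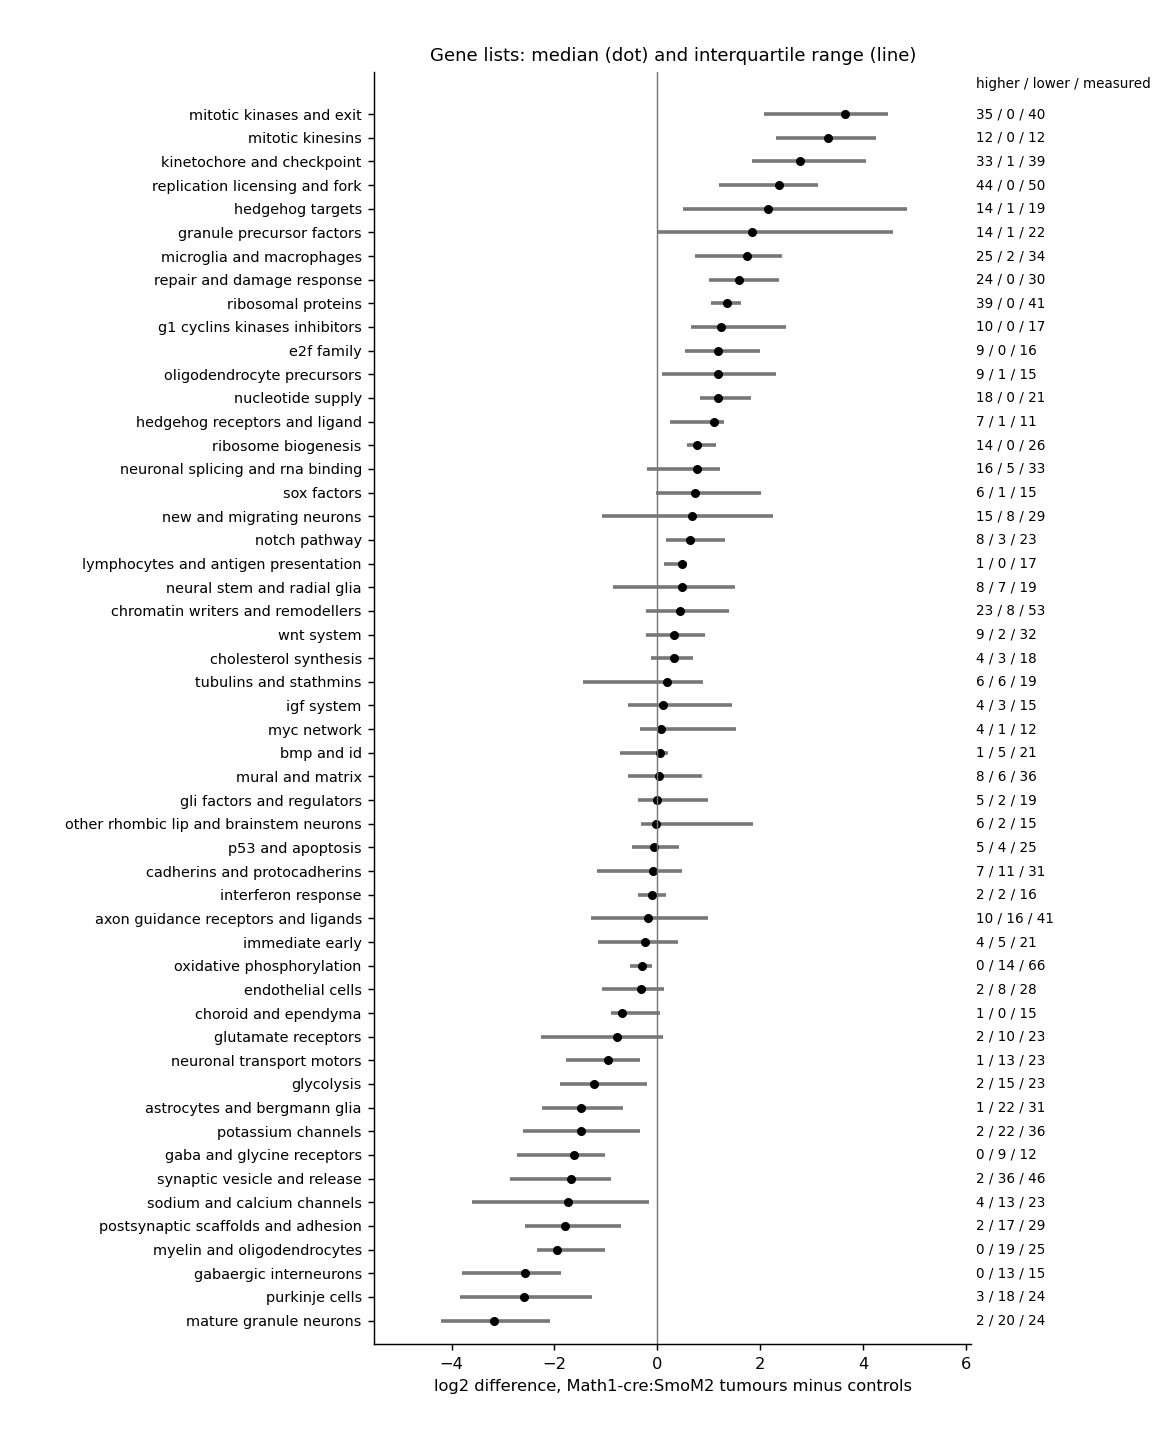
Median (dot) and interquartile range (line) of the log2 difference between Math1-cre:SmoM2 tumours and controls (horizontal axis) over the measured genes of each gene list (the smallest lists are left out), with the numbers called higher, called lower and measured at the right. Lists of cell division stand at the top, with medians up to 3.64, and those of mature granule neurons, Purkinje cells and interneurons at the bottom, down to -3.17.

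Hedgehog receptors and ligands were read first among the pathway lists. Of 11 measured, 7 rose and 1 fell (median 1.11). Ptch1, the receptor and a target of the pathway, stood at 11.56, 11.21 and 11.61 in the 3 tumours and from 9.93 to 10.58 (median 10.35) in the 6 controls and rose by 1.16 (SE 0.28, adjusted p = 0.00129). Hhip, a decoy receptor induced by the pathway, stood at 7.76, 7.70 and 7.10 in the 3 tumours and from 3.80 to 6.96 (median 5.47) in the 6 controls and rose by 2.15, and its tumours lay above every control, the closest of which was control 5. The co-receptors Boc and Gas1 rose by 1.03 and 1.11. Another co-receptor, Cdon, stood at 5.22, 5.81 and 5.87 in the 3 tumours and from 7.77 to 8.16 (median 7.88) in the 6 controls and fell by 2.28 (SE 0.28, adjusted p = 2.31e-07). Gpc3, a proteoglycan that binds Hedgehog, rose by 1.43, a call that was lost without tumour 1 or tumour 3 (adjusted p from 0.0588 to 0.137), and Disp1, needed for ligand release, by at least 1.17, a call that was lost without control 2, control 3, control 6, tumour 1, tumour 2 or tumour 3 (adjusted p from 0.0508 to 0.151). Shh, the ligand gene of Purkinje cells, differed by -1.28 (adjusted p = 0.122) and was not called.

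Among the Gli factors and their regulators 5 of 19 rose and 2 fell, and the median was 0.00 (-0.03 with quantile normalization). Gli1, the amplifying factor and a direct target, stood at 9.31, 9.33 and 9.46 in the 3 tumours and from 5.47 to 6.27 (median 5.97) in the 6 controls and rose by 3.44, a 10.8-fold difference. Gli2, the main activator, stood at 9.32, 9.07 and 9.04 in the 3 tumours and from 3.57 to 6.97 (median 5.54) in the 6 controls and rose by 3.62. Gli3, whose processed form represses targets, stood at 4.50, 5.88 and 5.65 in the 3 tumours and from 6.48 to 6.86 (median 6.76) in the 6 controls and fell by 1.35 (SE 0.38, adjusted p = 0.00555). All 3 tumours lay below all 6 controls for Gli3, and its call was lost without tumour 1 (adjusted p = 0.0974). The pathway's inhibitors did not share a direction. Sufu, which holds Gli proteins in the cytoplasm, rose by 2.27, the kinesin gene Kif7 by at least 2.36 with 5 controls at the floor, and Gpr161, a ciliary receptor that dampens the pathway, by 1.28. Spop, an adaptor of the ubiquitin ligase that degrades Gli proteins, stood at 8.49, 8.05 and 8.49 in the 3 tumours and from 9.81 to 10.73 (median 10.19) in the 6 controls and fell by 1.85 (SE 0.22, adjusted p = 1.38e-07), and its ligase scaffold gene Cul3 differed by -0.15 (adjusted p = 0.675). The kinase genes Prkaca (-0.44), Prkacb (-0.45) and Gsk3b (0.41), whose products promote Gli processing, were not called, and each had probe sets of both signs.

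Of 19 Hedgehog target genes 14 rose and 1 fell, with a median of 2.15. The cell cycle, Wnt and lineage genes of the list rose most. The G1 genes Cdk6 and Ccnd2 rose by 6.28 and 5.54, Sfrp1 by 6.02, Pdlim3 by at least 5.92, Mycn by 4.96 and Atoh1 by 4.74. Tgfb2 rose by 2.54, Ccnd1 by 2.50, Hhip by 2.15, the Polycomb gene Bmi1 by 1.43, Ptch1 by 1.16, Foxm1 by 1.05 and Boc by 1.03. Mycn, a transcription factor that drives precursor division, stood at 10.47, 11.23 and 10.72 in the 3 tumours and from 5.01 to 6.96 (median 5.80) in the 6 controls, with the direction shown by 2 of its 3 probe sets, and control 6 highest among the controls. Jag2 (-0.02), Bcl2 (-0.19), Igf2 (-0.23) and Foxf1 (-0.46) were not called, the last 3 with probe sets that disagreed in sign. Rasl11b fell by 0.62, a call that was lost without tumour 1 or tumour 2 (adjusted p from 0.0537 to 0.0944). Averaged over the list, levels were 9.10 to 9.18 in the tumours and 6.47 to 6.89 in the controls.

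Genes of granule neuron precursors, mainly transcription factors, were mostly higher, 14 of 22 rising and 1 falling (median 1.83). Barhl1, a homeodomain factor of the lineage, stood at 10.52, 10.85 and 10.50 in the 3 tumours and from 5.07 to 6.74 (median 5.78) in the 6 controls and rose by 4.70. Cxcr4, the chemokine receptor that holds precursors in the outer layer, stood at 10.15, 9.67 and 9.81 in the 3 tumours and from 4.19 to 5.52 (median 4.60) in the 6 controls and rose by 5.10. The basic helix-loop-helix genes Nhlh1 and Nhlh2 rose by at least 4.00 and 3.15, Ebf3 by 3.43, Meis1 by 1.84 and Zic4 by 1.82. Pax6 rose by 1.03 and Zic5 by 1.19, and neither call held in every fit: that of Pax6 was lost without control 5, tumour 1 or tumour 2 (adjusted p from 0.0606 to 0.13) and that of Zic5 without control 2, control 3, control 5, control 6, tumour 1, tumour 2 or tumour 3 (adjusted p from 0.0505 to 0.0955). Zic1 (0.35), the granule neuron gene Neurod1 (-0.55), Zic2 (-0.51), Barhl2 (-1.15) and Meis2 (-0.76) were not called. En2, an engrailed factor of the midbrain and cerebellum, stood at 8.30, 8.93 and 8.55 in the 3 tumours and from 9.69 to 10.06 (median 9.74) in the 6 controls and fell by 1.21 (SE 0.31, adjusted p = 0.00241), while En1 differed by -0.12 (adjusted p = 0.889). List means were 9.13 to 9.36 in the tumours, 6.83 to 6.98 in controls 1 to 5 and 7.34 in control 6.

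Among the regulators of the G1 phase 10 of 17 rose and 0 fell (median 1.25). Ccnd2 stood at 12.15, 12.21 and 12.21 in the 3 tumours and from 5.97 to 7.70 (median 6.47) in the 6 controls and rose by 5.54. Ccnd1 stood at 10.71, 10.51 and 10.69 in the 3 tumours and from 7.82 to 8.50 (median 8.14) in the 6 controls and rose by 2.50, and Ccnd3 rose by 0.90, a call that was lost without control 2, control 3, control 4, control 6, tumour 1, tumour 2 or tumour 3 (adjusted p from 0.0505 to 0.183). The kinases Cdk4 and Cdk2 rose by 3.27 and 3.29. The kinase inhibitor genes Cdkn2c and Cdkn2b also rose, by 2.44 and at least 2.22, the latter with 4 controls at the floor. Other inhibitors were not called, with Cdkn1c at 0.91, Cdkn1b at 0.68, Cdkn2d at 0.12 and Cdkn1a at -0.04, nor were the cyclin E genes Ccne1 (0.46) and Ccne2 (0.65). Of 16 genes of the E2F and MuvB families 9 rose and 0 fell. The E2F genes of the S phase rose, with E2f1 at 3.10, E2f2 by at least 2.54, E2f7 at 2.65 and E2f8 by at least 3.67, whereas E2f4 (-0.08), a repressor of resting cells, and E2f6 (-0.12) were not called.

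Genes of DNA replication rose almost throughout, 44 of 50 being higher and 0 lower, with a median of 2.37. Mcm6, a subunit of the replicative helicase, stood at 9.93, 9.61 and 9.88 in the 3 tumours and from 3.37 to 6.22 (median 4.33) in the 6 controls and rose by at least 5.38. The other helicase subunit genes rose less, from 2.35 (Mcm2) to 3.74 (Mcm5). Cdc6, which loads the helicase, was at the floor in all 6 controls, stood at 7.23, 7.20 and 6.92 in the tumours and rose by at least 3.75. Pole, the catalytic subunit of the leading-strand polymerase, and Dbf4, the activator of an initiation kinase, were also at the floor in every control and rose by at least 5.26 and at least 4.97. The sliding clamp gene Pcna rose by 2.94. Fen1 (-0.31), the flap nuclease, was not called and its 2 probe sets disagreed in sign, and Orc4 (-0.06), Orc5 (0.30), Rpa1 (-0.02) and Gins3 (0.45) were not called either. Genes of nucleotide supply rose in 18 of 21 cases, led by Rrm2 and by Tk1, thymidine kinase, by at least 5.10, and those of DNA repair in 24 of 30, led by Rad51ap1 (at least 4.77), Brca1 (3.96) and the checkpoint kinase Chek1 (at least 3.70), with 0 lower in either list.

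The lists of mitosis had the highest medians of all gene lists. Of 40 genes of mitotic kinases, cyclins and exit 35 rose and 0 fell (median 3.64), all 12 mitotic kinesin genes rose (median 3.32), and 33 of 39 kinetochore and checkpoint genes rose and 1 fell (median 2.77). Mki67, the gene of the proliferation antigen Ki-67, stood at 10.32, 10.09 and 10.76 in the 3 tumours and from 3.37 to 5.69 (median 4.20) in the 6 controls, with control 6 highest among the controls. Cdk1, the kinase that drives mitosis, stood at 10.69, 10.65 and 10.36 in the 3 tumours and from 4.48 to 6.09 (median 5.08) in the 6 controls and rose by 5.45. The exit gene Ube2c stood at 9.71, 10.09 and 9.49 in the 3 tumours and from 3.37 to 5.31 (median 3.38) in the 6 controls. Bub1b of the spindle checkpoint rose by at least 5.27, the centromeric histone gene Cenpa by at least 5.23, Birc5 by at least 4.92 and the kinesin gene Kif2c by at least 4.82, with 3 or 4 controls at the floor for each. Of the kinesins, Kif24 rose least, by 1.19, and the call of Kifc1, at at least 1.57, was lost without control 6, tumour 1 or tumour 3 (adjusted p from 0.0558 to 0.15). Pttg1 (0.27), Tpx2 (0.08), Wee1 (0.38) and Fzr1 (0.75), which keeps cells in G1, were not called, and neither was Pkmyt1 (-0.04), whose 2 probe sets disagreed in sign. Zwint, of the outer kinetochore, fell by 0.86 on the probe set used here, and only 2 of its 6 probe sets pointed that way. The mean level of the mitotic kinase list was 8.81 to 8.95 in the tumours, 5.36 to 5.52 in controls 1 to 5 and 5.96 in control 6. Without control 6 the counts were 35 of 40, 11 of 12 and 33 of 39.

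The promoters of these lists were searched for short motifs, as a description without a test. Each window ran from 250 bases before to 50 bases after a RefSeq start site (GRCm38.p6), and a gene counted when any of its windows held an exact match on either strand. The CCAAT box, bound by NF-Y, was found in 25 of 32 mitotic kinase and exit genes with a promoter (78.1%), 22 of 33 kinetochore genes (66.7%) and 24 of 41 replication genes (58.5%), against 41.1% of 27025 genes with a promoter and 42.5% of the 10899 genes tested here that had one. The cell cycle homology region TTTGAA, bound by the MuvB complex, was found in 65.6%, 39.4% and 22% of the same lists, against 14.5% of genes tested and 20.2% of all. Both together stood in 59.4%, 27.3% and 14.6%, against 6.89% of genes tested and 8.97% of all. The E2F motifs TTTCCCGC or TTTGGCGC were found in 14 of 41 replication genes (34.1%), 9.38% of mitotic kinase genes and 12.1% of kinetochore genes, against 3.26% of genes tested and 1.8% of all. None of these motifs contains another, though matches can share bases. Of 19 Hedgehog targets only 12 matched a promoter, so the search for the GLI motif GACCACCCA, found in 0 of 12 and in 0.289% of all genes, says nothing about that list. The 250 bases before the start site are printed for the 2 mitotic genes with the largest increase that hold both motifs and the 2 replication genes with the largest increase that hold an E2F motif. Capitals mark matches on either strand of the CCAAT box and TTTGAA in Mki67 and Ube2c, and of the E2F motifs in Mcm6 and Cdc6, and each sequence runs 5′ to 3′ on the strand of its gene.
Mki67, chr7:135716380-135716629, minus strand: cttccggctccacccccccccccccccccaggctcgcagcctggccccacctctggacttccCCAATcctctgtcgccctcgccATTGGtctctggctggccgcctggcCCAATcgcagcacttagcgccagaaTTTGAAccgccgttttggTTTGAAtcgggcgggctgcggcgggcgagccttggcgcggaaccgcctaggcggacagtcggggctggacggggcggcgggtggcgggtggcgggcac
Ube2c, chr2:164769679-164769928, plus strand: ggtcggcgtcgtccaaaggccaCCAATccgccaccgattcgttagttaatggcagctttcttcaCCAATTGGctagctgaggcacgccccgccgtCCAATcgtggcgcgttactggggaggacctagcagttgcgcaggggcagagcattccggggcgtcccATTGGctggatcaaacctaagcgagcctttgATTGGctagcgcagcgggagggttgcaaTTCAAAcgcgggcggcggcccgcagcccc
Mcm6, chr1:128359706-128359955, minus strand: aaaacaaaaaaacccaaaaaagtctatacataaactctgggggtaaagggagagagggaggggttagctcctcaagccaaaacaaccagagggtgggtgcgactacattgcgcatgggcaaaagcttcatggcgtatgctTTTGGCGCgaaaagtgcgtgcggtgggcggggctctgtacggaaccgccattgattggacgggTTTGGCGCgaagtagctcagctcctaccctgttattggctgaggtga
Cdc6, chr11:98907901-98908150, plus strand: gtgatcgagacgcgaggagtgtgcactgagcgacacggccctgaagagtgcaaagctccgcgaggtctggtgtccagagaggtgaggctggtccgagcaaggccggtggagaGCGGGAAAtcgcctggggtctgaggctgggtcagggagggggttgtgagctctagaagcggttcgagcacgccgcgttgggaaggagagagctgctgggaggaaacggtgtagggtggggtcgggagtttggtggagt
In Mki67 3 CCAAT boxes lie upstream of 2 cell cycle homology regions, which begin at positions -116 and -98 from the start site. In Ube2c 6 CCAAT matches, of which those at positions -186 and -183 lie on opposite strands and share bases, are followed by a single homology region at position -29. Mcm6 holds 2 E2F matches and Cdc6 holds 1. A match is a description of the letters and not of binding.

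Of 12 genes of the Myc network 4 rose and 1 fell (median 0.08), the Myc genes themselves being highest. Mycl, at 9.07, 8.05 and 8.55 in the 3 tumours and from 3.37 to 3.45 (median 3.37) in the 6 controls, rose by at least 5.18, and Myc, at 7.05, 7.03 and 6.77 in the 3 tumours and from 3.37 to 4.65 (median 3.37) in the 6 controls, by at least 3.37, each with 5 controls at the floor, beside Mycn at 4.96. Of the partners and antagonists in the list, Mxd3 rose by 0.91 and was lost without tumour 1 or tumour 3 (adjusted p from 0.074 to 0.0789), Mxd1 fell by 1.06 with 1 of its 2 probe sets, and Max, the shared partner, differed by -1.17 (adjusted p = 0.148). Ribosomal protein genes rose in 39 of 41 cases and fell in 0, with an interquartile range of 1.03 to 1.63 around the median of 1.36. Rplp0, of the ribosomal stalk, stood at 12.72, 12.73 and 12.68 in the 3 tumours and from 9.17 to 10.30 (median 9.87) in the 6 controls and rose by 2.85. Rpl39 (0.48) and Rps27 (-0.67) were not called. Means over the list were 11.40 to 11.72 in the tumours and 10.06 to 10.36 in the controls, and without tumour 3 the count was 33 of 41. Many ribosomal genes have near-identical processed copies elsewhere in the genome, which probe sets may not tell apart. Of 26 genes of ribosome biogenesis 14 rose and 0 fell (median 0.78), with Nhp2 at 2.29, Nop58 at 1.99 and Fbl at 1.74, the last a methyltransferase of ribosomal RNA.

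Chromatin genes rose more often than they fell, 23 of 53 rising and 8 falling (median 0.43). The share that fell was below the 18.1% of all genes tested. Hmgb2 and Hmgb3, chromatin proteins of dividing cells, rose by 5.16 and 4.17. Ezh2, the histone methyltransferase of Polycomb complex PRC2 in dividing cells, stood at 9.99, 9.996 and 9.85 in the 3 tumours and from 6.09 to 7.25 (median 6.32) in the 6 controls and rose by 3.50, whereas Ezh1, its relative of resting cells, stood at 7.31, 7.03 and 7.02 in the 3 tumours and from 8.05 to 8.87 (median 8.30) in the 6 controls and fell by 1.24. The other core subunit genes of the complex, Suz12 (0.29) and Eed (0.28), were not called. Among the reader subunits of PRC1, Cbx2 rose by 1.63 and Cbx7 fell by 1.93, the latter on 2 of 3 probe sets. Subunits of the BAF remodelling complex that mark neural progenitors rose, with Smarcc1 at 2.47, Actl6a at 1.69 and Ss18 at 1.32. Of their counterparts in neurons, Dpf3 fell by 1.73, Ss18l1 by 0.84, whose call was lost without tumour 1 (adjusted p = 0.066), and Actl6b (-0.82, adjusted p = 0.0602) and Dpf1 (-0.77, adjusted p = 0.0613) were not called. The number of the 53 that fell was 4 without tumour 1 and 5 without tumour 2, and 2 with no scaling. Of RNA-binding and splicing genes 16 of 33 rose and 5 fell, the share that fell again being below that of all genes. Ptbp1, a splicing repressor of neural progenitors, stood at 2.93 and Rbfox1, a splicing factor of mature neurons, at -1.99. The number that fell was 3 without tumour 1 and 2 without tumour 2, while no scaling gave 7 that rose and 1 that fell.

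**Figure D3:**
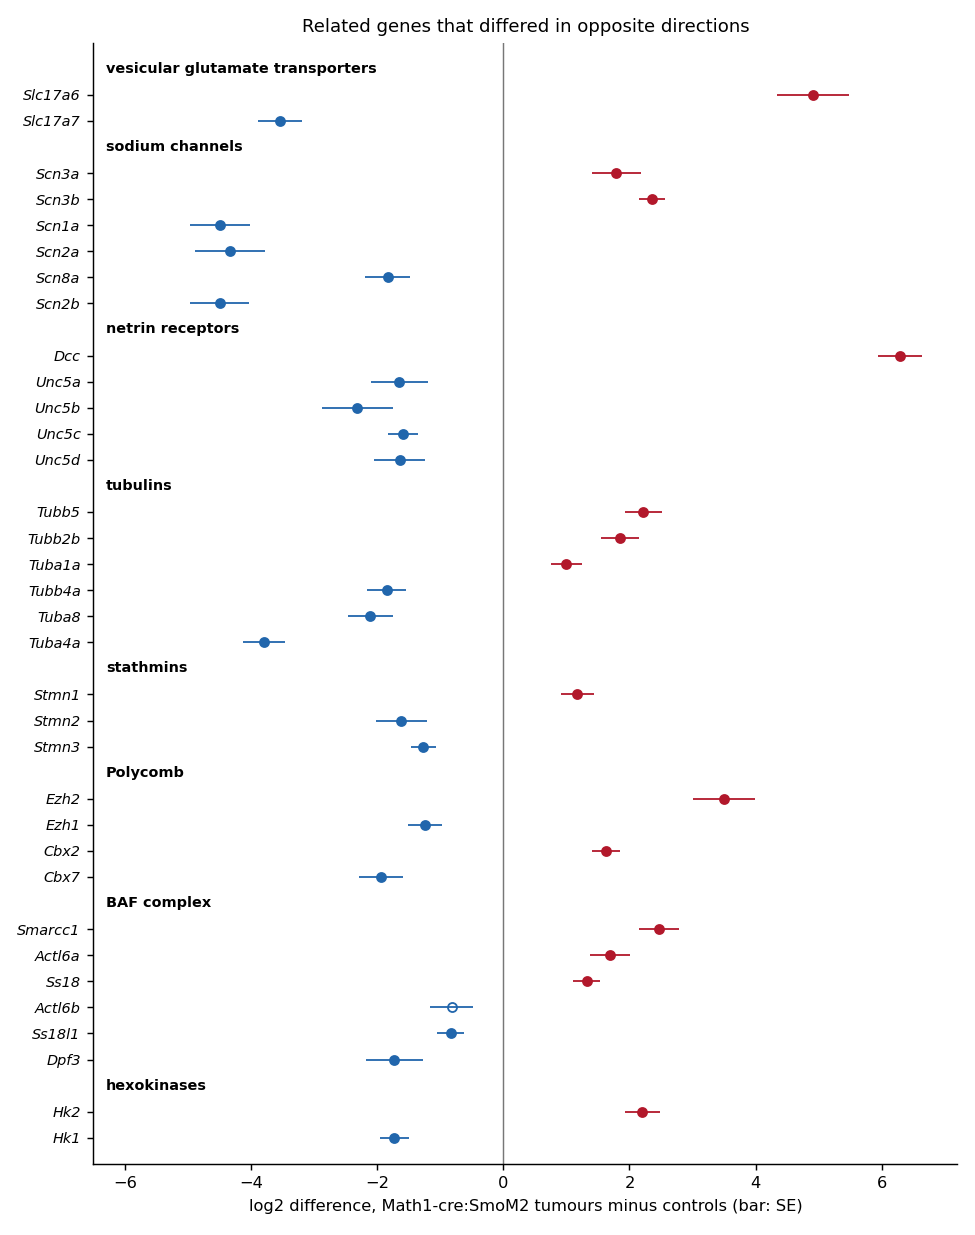
Log2 difference between Math1-cre:SmoM2 tumours and controls with its standard error (horizontal axis) for 8 sets of related genes, chosen after their values were seen. Filled points passed an adjusted p under 0.05 and the open point, Actl6b, did not, and within each set members lie on both sides of 0, as with Slc17a6 at 4.91 or more and Slc17a7 at -3.54.

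Genes of mature granule neurons fell in 20 of 24 cases and rose in 2 (median -3.17). After Gabra6, Gabrd and Cbln3 the lowest were Vsnl1 and Chn2, both given above, the giant cadherin gene Fat2 at -4.26 and the calcium-binding protein gene Calb2 at -4.18. Slc17a7, the vesicular glutamate transporter of mature granule neurons, stood at 5.33, 5.88 and 4.94 in the 3 tumours and from 8.36 to 9.59 (median 8.90) in the 6 controls and fell by 3.54 (SE 0.35, adjusted p = 3.90e-09). Neurod2, a late factor of the lineage, fell by 2.35, and Rbfox3, the gene of the NeuN antigen, by 0.86, a call that was lost without control 1, tumour 1 or tumour 2 (adjusted p from 0.0667 to 0.196). The 2 that rose were Nfib and Nfia, nuclear factor I genes active from precursor to granule neuron, and their groups did not overlap. Nfib stood at 12.22, 11.81 and 12.01 in the 3 tumours and from 9.10 to 9.85 (median 9.55) in the 6 controls. Nfia stood at 12.32, 12.24 and 12.03 in the 3 tumours and from 9.82 to 10.70 (median 10.16) in the 6 controls. They rose by 2.52 and 2.00, while Nfix (0.56) and Nfic (-0.36) were not called. The mean level of the mature granule neuron list was 7.74 to 8.37 in the tumours, 10.77 to 10.997 in controls 1 to 5 and 10.55 in control 6.

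Purkinje cell genes fell in 18 of 24 cases (median -2.59). After Slc1a6 the largest decreases were in the G-protein regulator gene Rgs8 (-4.41), Gng13 (-4.36), the calcium buffer gene Calb1 (-3.99), Ppp1r17 (-3.99) and Pcp4 (-3.92). Calb1 stood at 8.43, 8.19 and 8.17 in the 3 tumours and from 12.12 to 12.55 (median 12.19) in the 6 controls. The 3 genes that rose were transcription factors, Foxp2 at 1.13, Bcl11a at 1.01 and Lhx1 at 0.97, and of these the call of Foxp2 was lost without tumour 1 (adjusted p = 0.0525) and that of Bcl11a without control 1, control 2, control 3, control 4, control 5, control 6, tumour 1, tumour 2 or tumour 3 (adjusted p from 0.0543 to 0.13), Bcl11a having 4 of 5 probe sets in this direction. Of 15 genes listed for GABAergic interneurons 13 fell and 0 rose (median -2.57). The list does not mark these cells apart from Purkinje cells, which also make GABA, and Reln is in the cerebellum a gene of the granule lineage. Tfap2b fell by 4.37, followed by differences of -4.12 for the calcium-binding protein gene Pvalb, -3.95 for Gad1, which makes GABA, and -3.85 for Slc32a1, its vesicular transporter, while Reln (0.00) and Nxph1 (-0.14) were not called. The list means did not overlap between groups, at 7.04 to 7.12 in the tumours and 9.19 to 9.59 in the controls for Purkinje cells and 5.96 to 6.04 in the tumours and 8.15 to 8.73 in the controls for interneurons. How much of these differences is a smaller share of such cells was not tested.

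Genes of the synapse followed the neuronal lists. Among 46 genes for vesicles and release at the synapse, 36 fell and 2 rose (median -1.69). The lowest were Unc13c, a priming factor of granule neuron terminals, at -4.11, Slc32a1 at -3.85 and Syt1, the calcium sensor of fast release, at -3.80. The exceptions were Slc17a6 and the fusion gene Stx1a, which rose by 1.75. Slc17a6, a vesicular glutamate transporter of immature granule neurons, stood at 9.04, 9.54 and 9.30 in the 3 tumours and from 3.37 to 7.05 (median 3.37) in the 6 controls and rose by at least 4.91 (SE 0.57, adjusted p = 7.47e-08), with 4 controls at the floor. Its relative Slc17a7 fell, as given above. Of 29 postsynaptic genes 17 fell and 2 rose (median -1.80). Camk2a, at the floor in 2 tumours, the kinase gene Camk4 (-3.17) and Lgi1 (-3.13) were lowest, the scaffold gene Dlg4 stood at -2.83, and Homer2 rose by 2.04. The other increase, Dlgap3 at 0.83, was lost without tumour 3 (adjusted p = 0.0858).

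Receptor and channel genes fell with some exceptions. Of 12 GABA and glycine receptor genes 9 fell and 0 rose (median -1.62), Gabra3 (-0.51), Gabre (0.09) and the anchor gene Gphn (-0.43) not being called. Of 23 glutamate receptor genes 10 fell and 2 rose (median -0.79). The lowest were Grm7 at -3.57 or lower and Grm4, of parallel fibre terminals, at -3.16. Grin2c, which encodes an NMDA receptor subunit of adult granule neurons, fell by 2.50, a call that was lost without tumour 1 (adjusted p = 0.256). Grin2b, the subunit of young neurons, differed by 0.05 (adjusted p = 0.944) with probe sets of both signs. Cacng4 rose by 2.18 and Grm5 by 1.11, the latter lost without control 3, control 4, control 6, tumour 1, tumour 2 or tumour 3 (adjusted p from 0.053 to 0.232). Of 36 potassium channel genes 22 fell (median -1.49), with Kcnk3 at -4.18 or lower and Kcnj9 at -3.98 or lower, and Kcnd2, of the A-type current of granule neurons, at -3.79. The 2 that rose were Kcnq5 at at least 1.53, lost without tumour 2 or tumour 3 (adjusted p from 0.0809 to 0.109), and Kcnk2 at 0.79, lost without control 1, control 3, tumour 1 or tumour 2 (adjusted p from 0.0561 to 0.128).

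Of 23 sodium and calcium channel genes 13 fell and 4 rose (median -1.75). Scn3a, the alpha subunit most abundant before birth, stood at 5.72, 5.17 and 5.61 in the 3 tumours and from 3.37 to 4.36 (median 3.55) in the 6 controls and rose by at least 1.79 (SE 0.39, adjusted p = 0.000507). The beta subunit gene Scn3b rose by 2.35. The alpha subunits of the mature brain fell, Scn1a standing at 5.51, 5.25 and 5.47 in the 3 tumours and from 9.70 to 10.16 (median 9.89) in the 6 controls, with differences of -4.49 for Scn1a, -4.33 for Scn2a and -1.84 for Scn8a. Cacna2d1, an auxiliary calcium channel subunit, rose by 2.61 while its relatives Cacna2d2 and Cacna2d3 fell by 3.94 and 1.74. Hcn3 also rose, by at least 1.79, a call that was lost without control 1, control 4, control 6, tumour 1, tumour 2 or tumour 3 (adjusted p from 0.0581 to 0.108).

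Genes of new and migrating neurons were divided, 15 of 29 rising and 8 falling (median 0.67). Dcx, which steadies the microtubules of migrating neurons, stood at 10.84, 11.27 and 10.85 in the 3 tumours and from 3.37 to 6.23 (median 5.44) in the 6 controls, with 1 control at the floor. Dpysl3 rose by 3.05, Crmp1 by 1.65 and the neuronal tubulin gene Tubb3 by 1.42. The adhesion genes Cntn1 and the growth cone gene Stmn2 fell by 1.87 and 1.62, and Gap43 (-0.32) was not called. The number that fell was 5 without tumour 1. Tubulins and stathmins were evenly split, 6 of 19 rising and 6 falling. Tubb5 stood at 12.75, 12.74 and 12.69 in the 3 tumours and from 9.91 to 10.88 (median 10.60) in the 6 controls and rose by 2.22, Tubb2b rose by 1.85 and Stmn1 by 1.17. Tuba4a stood at 8.06, 8.01 and 7.62 in the 3 tumours and from 11.09 to 12.06 (median 11.74) in the 6 controls and fell by 3.79, Tuba8 fell by 2.11 and Tubb4a by 1.85. The genes of neurofilaments fell, with Nefh at -4.18, Nefm at -3.32 and Nefl at -3.29, and 13 of 23 transport motor and filament genes fell in all, 1 rising.

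The netrin receptor genes moved in opposite directions. Dcc, which mediates attraction to netrin, stood at 11.42, 11.30 and 10.42 in the 3 tumours and from 4.25 to 5.57 (median 4.61) in the 6 controls and rose by 6.29 (SE 0.34, adjusted p = 4.86e-14). All 4 Unc5 genes, whose products mediate repulsion, fell, with differences of -1.65 (Unc5a), -2.32 (Unc5b), -1.59 (Unc5c) and -1.64 (Unc5d). Unc5b stood at 5.61, 6.22 and 6.77 in the 3 tumours and from 8.23 to 8.74 (median 8.54) in the 6 controls. Ntn1, the ligand gene, rose by 0.98, with tumour 3 within the controls, and its call was lost without control 1, control 6, tumour 1 or tumour 2 (adjusted p from 0.0557 to 0.179). Over the 41 axon guidance genes 10 rose and 16 fell (median -0.18), including the slit receptor gene Robo2 at at least 2.25 and the plexin gene Plxnb2 at 2.53 among those that rose and Sema5a at -1.87 among those that fell.

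Astrocyte and Bergmann glia genes fell in 22 of 31 cases and rose in 1 (median -1.48). Gdf10, a secreted factor of Bergmann glia, stood at 6.66, 5.00 and 4.60 in the 3 tumours and from 8.57 to 9.43 (median 8.80) in the 6 controls and fell by 3.45. Also lower were Gjb6, a gap junction gene (-3.28), Id4 (-2.48), S100b (-2.42) and Aldoc (-2.36). Gfap was the exception, at 10.59, 10.15 and 9.59 in the 3 tumours and from 6.44 to 9.84 (median 7.99) in the 6 controls. Tumour 3 lay below control 6 there, and the rise of 2.11 (SE 0.72, adjusted p = 0.0204) was lost without control 3, tumour 1 or tumour 2 (adjusted p from 0.0513 to 0.0972). Apoe (0.10), Aqp4 (0.15) and Sox9 (1.23) were not called. The list averaged 8.37 to 8.70 in the tumours and 9.71 to 10.05 in the controls, and its part in other results was not tested.

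Genes of myelinating oligodendrocytes fell in 19 of 25 cases and rose in 0 (median -1.94), whereas 9 of 15 genes of their precursors rose and 1 fell (median 1.18). Myrf, the master factor of myelination, fell by 3.31, while Mog stood at -3.20 or lower with all 3 tumours at the floor and Mbp at -2.35 with 7 of 8 probe sets. Mbp still stood at 10.95, 10.59 and 9.85 in the tumours. Pdgfra, the growth factor receptor of oligodendrocyte precursors, stood at 11.63, 10.91 and 11.17 in the 3 tumours and from 5.70 to 6.73 (median 6.30) in the 6 controls and rose by 5.00, a 32.1-fold difference. Olig2, at 8.26, 8.27 and 8.08 in the 3 tumours and from 4.46 to 6.14 (median 4.79) in the 6 controls, rose by 3.19, C1ql1 by 3.67, Matn4 by at least 2.60 and Olig1 by 2.00. Sox10 (0.42), shared by both stages, Nkx2-2 (-0.04) and the precursor matrix genes Bcan (-0.12) and Tnr (-0.47) were not called, and Ptprz1 fell by 1.02. Mean levels were 8.18 to 8.22 in the tumours and 6.62 to 7.14 in the controls for the precursor list and 6.48 to 6.74 in the tumours and 8.16 to 8.77 in the controls for the myelin list. Whether tumour cells or oligodendrocyte precursors hold these transcripts cannot be told apart in whole tissue.

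Genes of microglia and macrophages rose in 25 of 34 cases and fell in 2 (median 1.74). The lysozyme gene Lyz2 rose by 3.74, and the probe set of Lyz1, at 5.31, may also detect Lyz2, a near-identical gene. C1qc, of the complement initiator, stood at 9.84, 9.97 and 9.31 in the 3 tumours and from 5.45 to 6.82 (median 6.34) in the 6 controls and rose by 3.50, Tyrobp rose by 3.11, the lysosomal gene Cd68 by 2.95 and Aif1 by at least 2.53. Markers of resting microglia were mixed. P2ry12 (0.76), Tmem119 (0.05) and Siglech (-0.02) were not called, whereas Cx3cr1 rose by 1.89 and Gpr34 by 1.235. The call of Gpr34 was lost without tumour 1 or tumour 2 (limma adjusted p from 0.0624 to 0.0628). P2ry12 stood at 7.00, 7.11 and 5.90 in the 3 tumours and from 5.25 to 6.48 (median 6.04) in the 6 controls, so the groups overlapped. Cd14 and Cd83 fell, by 1.42 and 0.98, and the call of Cd14 was lost without control 3, control 4, control 5, tumour 1 or tumour 3 (adjusted p from 0.0571 to 0.304). The mean level of the list was 7.34 to 7.60 in the tumours, 5.60 to 5.97 in controls 1 to 5 and 6.16 in control 6, and the part of such cells in other results was not tested. Of 17 lymphocyte and antigen presentation genes 1 rose, Cd52 at 1.16, a call lost without tumour 1 or tumour 3 (adjusted p from 0.0671 to 0.0843), and none of 5 blood cell genes was called by limma, Pf4 being highest at 0.64 (adjusted p = 0.0902).

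Vessel and matrix genes gave mixed results. Of 28 endothelial genes 8 fell and 2 rose (median -0.32). Plvap, a gene of fenestrated endothelium, stood at 4.20, 4.20 and 3.88 in the 3 tumours and from 6.79 to 7.62 (median 7.31) in the 6 controls and fell by 3.17 (SE 0.41, adjusted p = 4.16e-07), and the receptor gene Tek fell by at least 1.84. Sox18 rose by 4.25 and Angpt2, which loosens vessels, by at least 1.68, while Cdh5 (0.03), Cldn5 (-0.17) and Kdr (0.22), shared by endothelium in general, were not called. Vegfa fell by at least 1.86, a call that was lost without tumour 1 (adjusted p = 0.36). Of 36 mural and matrix genes 8 rose and 6 fell (median 0.03), shares near the 19.3% and 18.1% of all genes tested. The number that fell was 3 without tumour 3. The basement membrane collagen genes Col4a1 and Col4a2 rose by 2.36 and 1.53, with Mmp14 at 2.33 and Lama1 by at least 2.24 (4 controls at the floor). Lamb1 fell by 2.36 and Pdgfrb, of pericytes, by 1.59. Another collagen gene, Col18a1, fell by 0.92. Its call was lost without control 1, control 2, control 3, control 4, control 5, tumour 1, tumour 2 or tumour 3 (limma adjusted p from 0.0508 to 0.121). Fibrillar collagen genes Col1a1 (-0.42) and Col1a2 (-0.51) were not called.

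Genes of glycolysis fell in 15 of 23 cases and rose in 2 (median -1.23). Hk2, a hexokinase of growing cells, stood at 9.74, 9.29 and 9.38 in the 3 tumours and from 7.02 to 7.42 (median 7.30) in the 6 controls and rose by 2.20 (SE 0.27, adjusted p = 2.06e-07), while Hk1, the hexokinase of adult brain, fell by 1.73. Ldha, of lactate production, rose by 1.00, a call that was lost without tumour 1 (adjusted p = 0.0584), and Ldhb fell by 1.57. Eno2, at 6.19, 6.58 and 5.99 in the 3 tumours and from 10.52 to 11.12 (median 10.97) in the 6 controls, Pfkp (-2.49), Pdk2 (-2.44) and Aldoa (-1.99) fell, and several of these are enriched in neurons or astrocytes, whose markers also fell (their part was not tested). Pkm (-0.29) was not called. Of 66 oxidative phosphorylation genes 14 fell and 0 rose (median -0.30), a share near the 18.1% of all genes that fell, with Cox8a at -1.45 and Ndufa5 at -1.25. Quantile normalization gave 23 that fell and no scaling gave 0. The group means of the list were 10.09 to 10.29 in the tumours and 10.19 to 10.69 in the controls.

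Signalling pathways other than Hedgehog were mixed. Of 23 Notch pathway genes 8 rose and 3 fell (median 0.64). Among ligands and modulators Mfng rose by at least 3.06, Dll3 by 2.80 and Jag1 by 2.58, and among targets Hey1 by 2.21, Hes5 by at least 2.53 and Hes1 by 1.01, whereas the receptors Notch1 (0.35) and Notch2 (0.65) and the ligand Dll1 (-0.24) were not called. Dner, a ligand of Purkinje cells, fell by 2.02. Of 32 genes of the Wnt system 9 rose and 2 fell (median 0.33), the share that fell being below the 18.1% of all genes tested. The number that rose was 6 without tumour 1 and 7 without tumour 2 or tumour 3. The secreted antagonists Sfrp1 and Sfrp2 led at 6.02 and 4.20, with the receptor Fzd2 at 3.26 and the feedback gene Nkd1 at 2.63. Axin2 (0.72) and Lef1 (-0.69), common readouts of the pathway, were not called. The 2 that fell were Wnt5a, by 0.91, a call lost without control 1, control 2, control 3, control 5, control 6, tumour 2 or tumour 3 (adjusted p from 0.0528 to 0.339), and Lgr4, at -0.95, a call lost without tumour 3 (adjusted p = 0.0655). Of 15 genes of the insulin-like growth factor system 4 rose and 3 fell (median 0.12), against 19.3% and 18.1% of all genes tested. Those that rose were Igfbp4 at 2.72, Irs1 at 2.46, Igfbp2 at 2.03 and Igfbpl1, given above. Those that fell were Igfbp5 at -2.32, Igfbp6 at -1.65 and Igf2r at -1.61. Of 21 BMP pathway genes 1 rose, Id3 at 1.74, and 5 fell (median 0.05), against the same shares of all genes. The decreases were led by Gdf10 and Id4, and the number that fell was 3 without tumour 1.

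SOX and stem cell genes did not move as a block. Of 15 SOX genes 6 rose and 1 fell, with Sox4 at 4.20 (6 of 7 probe sets), Sox1 at 2.36 and Sox12 at 1.68 below Sox11 and Sox18. The 1 that fell was Sox17, a call lost without tumour 3 (limma adjusted p = 0.0902). Sox2 (-0.46), a factor of neural stem cells, was not called. Of 19 neural stem and radial glia genes 8 rose and 7 fell (median 0.48), the number that fell being 4 without tumour 1, 3 without tumour 2, 4 without tumour 3, 4 without control 1 and 4 without control 3. Lhx2, at the floor in all 6 controls, rose by at least 3.31. Tnc fell by 1.56, a call that was lost without tumour 2 (adjusted p = 0.0612), and Ptprz1 by 1.02, Vim differed by 0.48 (adjusted p = 0.402), and Nes fell by 1.02 on a probe set whose partner had the opposite sign, a call that was lost without control 3, tumour 1, tumour 2 or tumour 3 (adjusted p from 0.0504 to 0.121). Among markers of other rhombic lip and brainstem neurons 6 of 15 rose and 2 fell, including Pou4f1 by at least 3.90, Otx2 at 1.71 and Tlx3 at 1.62, against Eomes, of unipolar brush cells, at -2.04. The hindbrain genes Hoxb4 (-0.22) and Hoxb2 (-0.65) were not called.

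Further lists held fewer called genes. Apart from the cadherin genes that fell, their shares were near or below the 19.3% of all genes that rose and the 18.1% that fell. Of 25 p53 and apoptosis genes 5 rose and 4 fell (median -0.06, 0.02 with no scaling), with Bid by at least 3.68 (4 controls at the floor) and Eda2r by at least 3.52 highest, Perp at -2.07 or lower lowest, and Mdm2 (-0.06) not called. Of 31 cadherin genes 7 rose, led by Pcdh18 at 3.49 and Cdh20 at 2.63, and 11 fell, led by Fat2 and by Cdh1 at -2.64 or lower. Of 18 genes of cholesterol synthesis 4 rose, Srebf1 by 2.96, and 3 fell, the latter 1 without tumour 1, 1 without tumour 2, 1 without tumour 3, 1 without control 3 and 1 without control 4. Of 21 immediate early genes 4 rose and 5 fell, from Ier5 at 2.70 to Egr1 at -2.12 and Fos at -1.77. Of 16 interferon response genes 2 rose, Ifit2 by at least 2.86 and Ifitm3 at 1.85, and 2 fell, Stat2 at -1.54 and Ifit3 at -1.37 or lower. Without tumour 3 the difference of Ifit3 was -0.64 (adjusted p = 0.205) and only Stat2 fell. Of 15 choroid plexus and ependyma genes only Mia was called, at 1.05, a call lost without tumour 3 (adjusted p = 0.104), and Ttr, the most abundant choroid plexus gene, differed by -1.61 (adjusted p = 0.693).

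**Figure D4:**
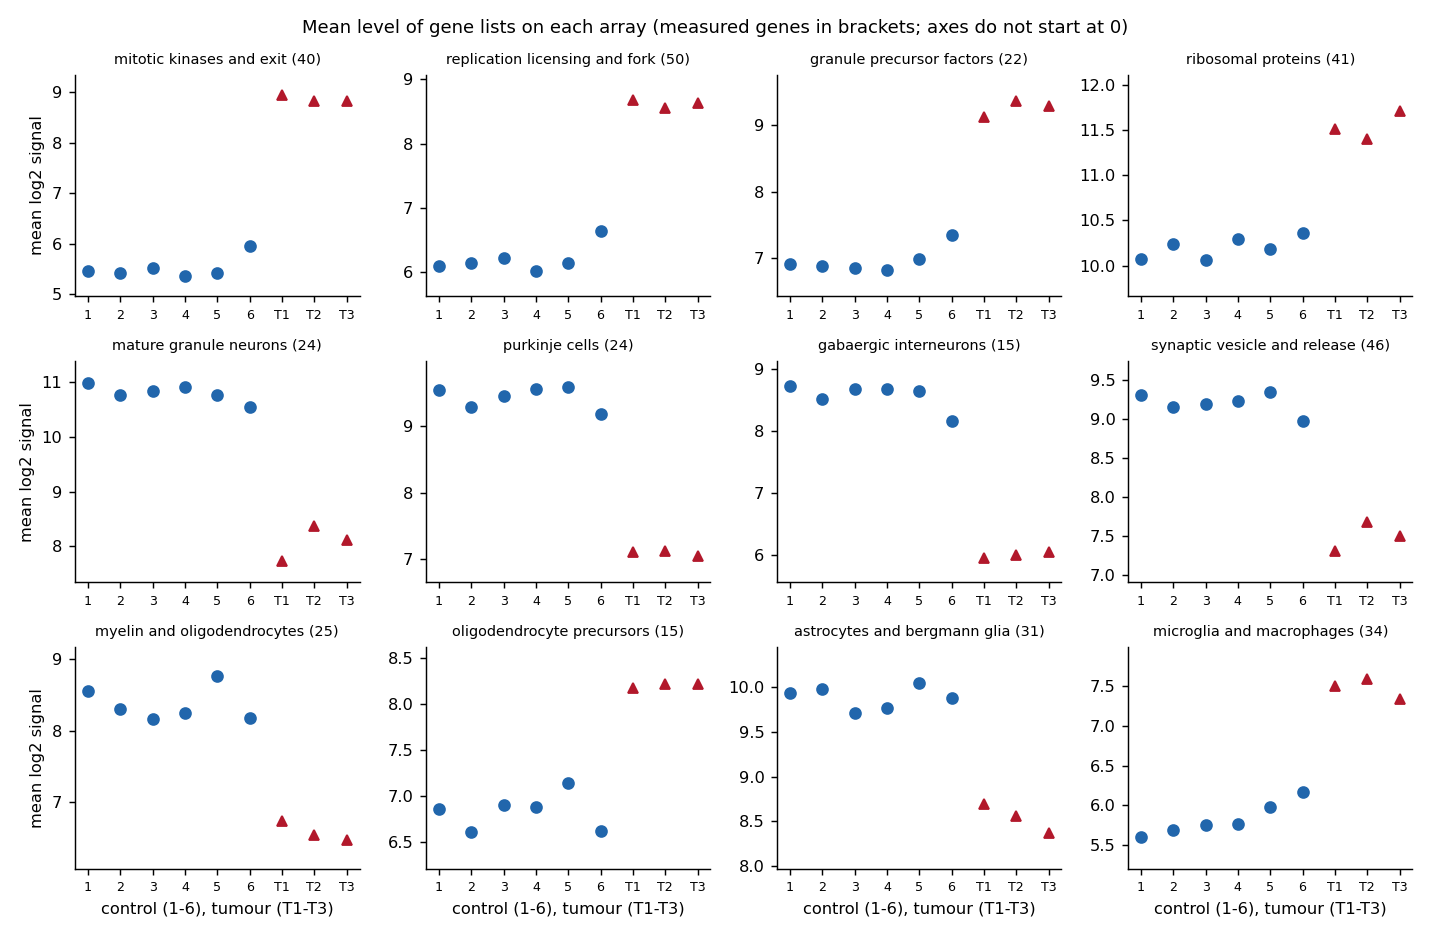
Mean log2 signal (vertical axes, not starting at 0) of 12 gene lists on each array, with controls 1 to 6 as circles and the 3 Math1-cre:SmoM2 tumours (T1 to T3) as triangles, and the number of measured genes in brackets. In each of the 12 panels the 3 tumours lie on one side of all 6 controls. Control 6 lies nearest to the tumours in the mitotic (5.96), replication (6.64), granule precursor (7.34), ribosomal protein, mature granule neuron, Purkinje, interneuron, synaptic and microglia panels.

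The Math1-cre:SmoM2 tumours were then compared with the mean of the Tlx3-cre:SmoM2, Olig2-tva-cre:SmoM2 and hGFAP-cre:SmoM2 tumours, to ask which genes set them apart among tumours with the same oncogene. The difference itself uses no control array, though the fit behind its p-values holds all 27 arrays. Fitted on the arrays of the SmoM2 tumours alone, it also called 0 genes. Limma called 0 of 13527 genes (0%), 0 higher (0%) and 0 lower (0%), and 377 genes had an unadjusted p under 0.05. The smallest adjusted p was 0.128. The typical 95% interval of a gene reached 0.58 to each side on the log2 scale, close to the 0.65 of the comparison with controls, and 107 genes had an estimated difference over 1 in size. The median size of the difference was 0.18, against 0.58 for the comparison with controls. With the Tlx3-cre:SmoM2 group left out of that mean, though its arrays stayed in the fit, 1 gene was called, Itih3. Array weights called 17.

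The genes with the smallest p-values, 5 in each direction, are given as values. Itih3, of a family that binds hyaluronan, stood at 5.91, 5.66 and 5.82 in the Math1 tumours, from 5.61 to 7.33 in the 3 Tlx3 tumours, from 7.21 to 8.75 (median 7.90) in the 7 Olig2 tumours and from 8.06 to 9.84 (median 8.69) in the 6 hGFAP tumours. Its difference was -1.94 (95% interval -2.68 to -1.20, limma adjusted p = 0.128). The Math1 tumours lay below every Olig2 and hGFAP tumour and within the range of the Tlx3 tumours. Against the mean of the Olig2 and hGFAP groups alone, in the same fit, the difference was -2.57 (limma adjusted p = 0.0014). Otx1, a homeodomain factor related to Otx2, stood at 7.76, 7.82 and 7.63, from 5.79 to 6.97 in the Tlx3 tumours, from the floor to 6.56 in the Olig2 tumours, 4 of which were at the floor, and from 3.50 to 8.18 in the hGFAP tumours. With those arrays at the floor its difference was at least 2.51 (adjusted p = 0.942). The controls were at the floor for Otx1, except control 6 at 3.53.

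Clu, the gene of the secreted chaperone clusterin, which is abundant in astrocytes, stood at 9.41, 9.45 and 8.78, from 9.87 to 10.05 in the Tlx3, 9.71 to 10.85 in the Olig2 and 9.88 to 11.52 in the hGFAP tumours, below all of them (difference -1.09, adjusted p = 0.942). Gadd45g, a growth arrest gene, stood at 3.51, 3.77 and 4.91, against 5.01 to 5.45, 4.30 to 7.01 and 5.35 to 6.85 in the same groups, overlapping with the Olig2 tumours (difference -1.68). Pisd-ps3, a pseudogene, and Pdxdc1 differed by -0.80 and -0.90, with the Math1 tumours below all others, and another probe set of Pdxdc1 had the opposite sign, at 3.28. On the high side were St6galnac2 at 1.44 or more, with 2 Tlx3 and 2 Olig2 tumours at the floor, Ehbp1 at 1.17, Adck5 at 1.13 and Ralgapa2 at 0.87, and each of these 4 overlapped with at least 1 other SmoM2 group. Over the gene lists, the median of this difference was -0.45 for the 31 astrocyte and Bergmann glia genes and 0.33 for the 15 oligodendrocyte precursor genes, the lowest and the highest of the lists, against 0.03 over all genes. It was -0.31 for choroid plexus and ependyma, -0.31 for other rhombic lip and brainstem neurons, -0.20 for stem and radial glia genes and -0.17 for ribosome biogenesis. On the high side it was 0.21 for Hedgehog receptors, 0.18 for Gli factors and their regulators and 0.15 for mitotic kinases. These medians carry no test.

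**Figure D5:**
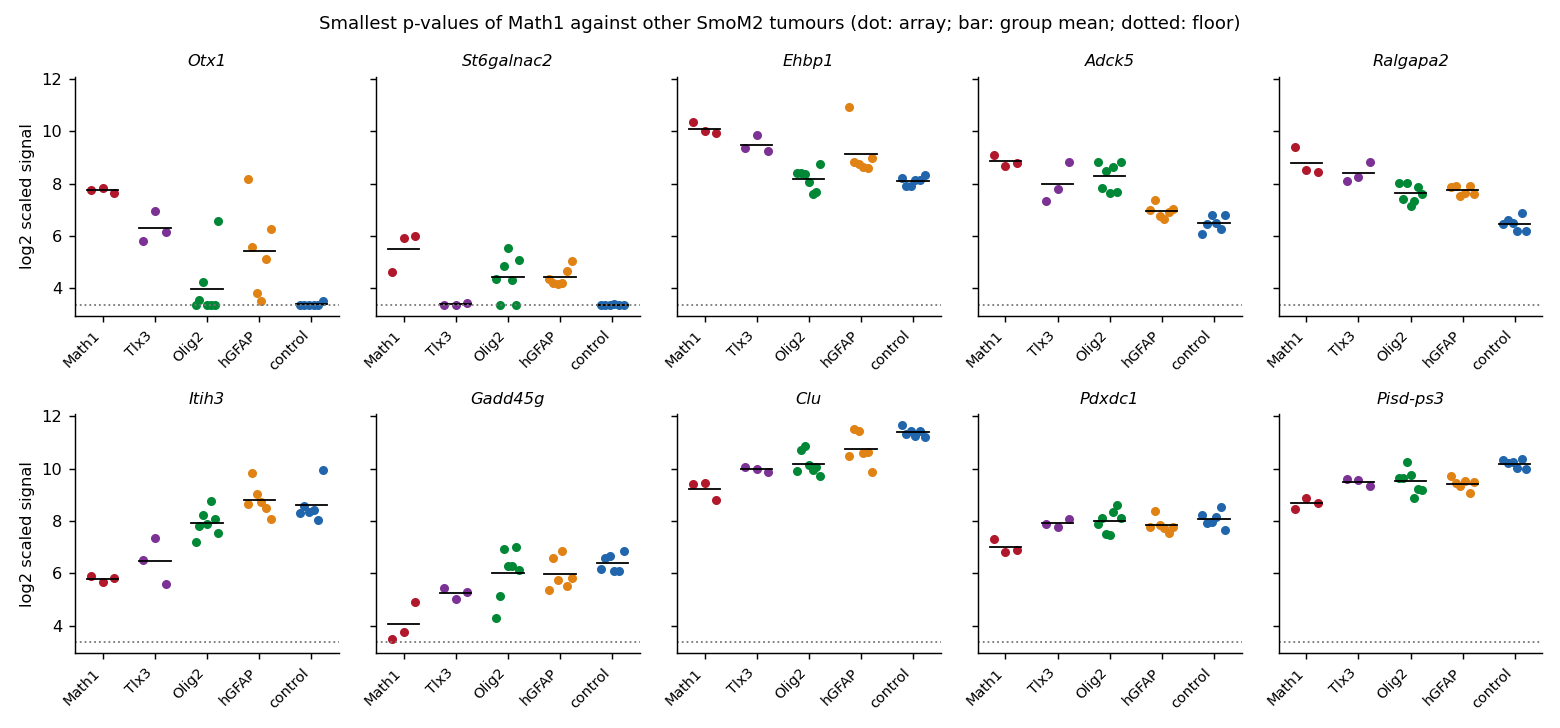
Log2 scaled signal (vertical axis) of the 10 genes with the smallest p-values between Math1-cre:SmoM2 and other SmoM2 tumours, on each array (dots) of the 4 SmoM2 groups and the controls, with a bar at each group mean and a dotted line at the floor. None passed an adjusted p under 0.05, and for Itih3, Pdxdc1, Gadd45g, Pisd-ps3 and Clu the mean of the Math1 tumours is the lowest of the 5 groups.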

How the data were processed

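RNA of 27 mouse samples was extracted with Trizol and RNeasy, labelled and hybridised to Affymetrix arrays, per the labels' protocols. The deposited values are MAS5 signal intensity per probe set on a linear scale for 45101 probe sets, per the submitters' processing notes; the MAS5 version and scaling target are not given in the sources used here. Each array was scaled to a common trimmed mean (2% trimmed at each end, 123.61), raised to the 20th percentile of all signals (10.32) and taken to log2. Probe sets above the overall median (45.56) on at least 3 arrays were kept, and the probe set of highest mean stood for each of 13527 genes. Of 45101 probe sets, 34958 name 1 gene, 932 name several and 9211 are unnamed here, and only the first were used. Differences were tested with limma 3.58.1 in R 4.3.3 (trend and robust options), with a mean for each of 6 groups over all 27 arrays (21 residual degrees of freedom) and Benjamini-Hochberg adjustment over all genes. Code was tested on simulated data. The named genes are those of the design, the 20 highest and 20 lowest called genes without overlap, 5 each way against the other SmoM2 tumours, and members of the gene lists. The members and lists were chosen with earlier results of these data known. The replicate numbers do not pair the samples, and the correlations of same-numbered deviations were 0.0590, 0.0421 and 0.0317. Alternatives covered scaling, floor, filter, probe set choice, arrays fitted, weights, covariates and left-out arrays. Promoter sequences are RefSeq's on GRCm38.p6.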

Additional observations from a re-analysis of the deposited data

Results flagged for a closer look

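Of 58 genes examined over the 6 controls, 10 had a control whose gap to the next one passed Dixon's test for an outlying value. Chance flags about 1 in 20 groups of normally distributed values, a rate that does not hold for genes with controls at the floor, such as Insm1. Igfbpl1 and Chrna3, at the floor in every control, are among the 58 and could not be flagged. For Psrc1, Otx1 and St6galnac2 the other 5 controls were at the floor, so that any value above it had to pass. Control 6, from a Ptc1+/- mouse, was that array in 8 of these. It was the highest control for 5 genes of progenitors or dividing cells, with Insm1 at 6.73 (next highest 4.09), Top2a at 6.40 (4.46), Ube2c at 5.31 (3.71), Cks2 at 6.53 (4.98) and Cdca3 at 5.06 (3.53). It was the lowest control for the Purkinje cell gene Slc1a6, at 8.06 against 8.996 for the next. It was also highest for Itih3, at 9.93 against 8.56, and for Otx1, at 3.53 with the other controls at the floor of 3.37. Control 4, from a Mxi1-cre:SmoM2 mouse, was the only control above the floor for Psrc1, at 4.08, and for St6galnac2, at 3.40. Without control 6 the difference between the tumours and the controls was at least 7.70 for Insm1 and -5.81 or lower for Slc1a6, both still called by limma.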

How the results depend on the processing

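The number of genes that differed between the Math1-cre:SmoM2 tumours and tissue without tumour was 2838 with no scaling, under which the median of all genes moved to 0.10 on the log2 scale, and 2782 of these were among the 5062. Under all other settings it lay from 4315 (filter at the 75th percentile) to 7111 (array weights), and from 4041 to 4974 when 1 array was left out. With the replicate number as a block 4953 genes were called, and 0 against the other SmoM2 tumours. The share of calls that were higher stayed between 49.6% and 53.3%. Leaving out the arrays with a high 3' to 5' ratio gave 5397, that ratio as a covariate 5342, and leaving out the dim arrays 6255, the left-out arrays being chosen after seeing the data. Against the other SmoM2 tumours array weights called 17 genes and the probe set of largest variance 1 (Pdxdc1). With the Tlx3-cre:SmoM2 group left out of the mean, though its arrays stayed in the fit, 1 was called (Itih3). Under the rest 0 were called, including the fits that left out each of the 3 Math1 arrays (0 to 0). The arrays of the other tumours were not left out singly. With no scaling a count of 5 or more in a gene list moved by over 1.5 times for oxidative phosphorylation (0 lower in place of 14), splicing (7 higher and 1 lower in place of 16 and 5), chromatin (2 lower in place of 8), stem cell genes (2 lower in place of 7), ribosome biogenesis (5 higher in place of 14), nucleotide supply (11 higher in place of 18), Hedgehog receptors (4 higher in place of 7), Wnt genes (5 higher in place of 9), axon guidance (5 higher and 9 lower in place of 10 and 16), cadherins (6 lower in place of 11), transport motors (8 lower in place of 13), endothelium (5 lower in place of 8) and BMP and immediate early genes (3 lower in place of 5 in each). Among counts of 3 or 4, cholesterol synthesis went to 1 higher and 0 lower in place of 4 and 3, Purkinje cells to 0 higher in place of 3, Notch to 1 lower in place of 3 and p53 to 2 lower in place of 4. Signs turned for genes whose probe sets disagree. With the floor at the 40th percentile the difference from controls was 1.97 for Nes and 2.77 for Pkmyt1. With the mean of the probe sets it was 0.82 for Fen1, 0.59 for Nes, 0.41 for Pdxdc1, 1.66 for Pkmyt1 and 0.15 for Zwint. With the probe set of largest variance it was 1.96 for Fen1, 0.82 for Mxd1, 2.20 for Nes, 3.98 for Pdxdc1 and 3.36 for Pkmyt1, and against the other SmoM2 tumours 3.28 for Pdxdc1. These settings read other probe sets of the gene. Over 367 named genes and 30 settings, 241 values lost their call and 79 gained one.

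Signals at the floor give only bounds, and 580 called genes had an array there. No control came from the Math1 line, no age is used here, and whole tissue does not separate cell number from RNA per cell.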
